A study of Mus musculus with 2 samples.

Results

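The genes described here encode the pore-forming subunits of AMPA and kainate receptors. Gria1, Gria2, Gria3 and Gria4 encode the 4 AMPA receptor subunits, and Grik1, Grik2, Grik3, Grik4 and Grik5 encode the 5 kainate receptor subunits. They were chosen by symbol and are 9 of the 55536 genes in the annotation release used. Polyadenylated RNA was measured in the forebrain of newborn mice (B6NCrl strain, age 0 days). There were 2 libraries, each made from 10 ng of total RNA of a single forebrain, one from pup 1 and one from pup 3. They form 1 untreated group with no genetic change named in the labels, so differences between the pups are given by size, without a p-value. The labels record no sex and give both pups the same donor identifier, so nothing in them says whether the pups were littermates.

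AMPA and kainate receptors are glutamate-gated cation channels, each assembled from several subunits. AMPA receptors carry most fast excitatory transmission in the brain, and an edited Gria2 subunit makes the channel nearly impermeable to calcium. Each AMPA subunit gene has a pair of alternative exons, named flip and flop, in the ligand-binding part. Their choice sets how fast the channel desensitises, and in rodent brain flip forms are known to come before flop forms in development. The products of Grik1, Grik2 and Grik3 form kainate channels by themselves, while those of Grik4 and Grik5 bind kainate tightly but need a partner from the first set. Kainate receptors act on both sides of the synapse and modulate transmitter release.

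The flip and flop exons are shown because the transcript values below divide each AMPA gene by them. They were read from the GENCODE M21 transcripts (mm10) and are coding sequence, 5′ to 3′. Capitals mark the bases at which flip and flop of the same gene differ, and coordinates are those of the exon.
Gria1 flip, chr11:57310608-57310722, plus strand: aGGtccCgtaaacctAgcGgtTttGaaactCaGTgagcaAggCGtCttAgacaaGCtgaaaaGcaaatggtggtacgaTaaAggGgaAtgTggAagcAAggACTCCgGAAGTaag
Gria1 flop, chr11:57309769-57309883, plus strand: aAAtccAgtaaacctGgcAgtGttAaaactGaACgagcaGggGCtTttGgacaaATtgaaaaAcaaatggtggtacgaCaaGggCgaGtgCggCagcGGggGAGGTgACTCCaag
Gria2 flip, chr3:80690404-80690518, minus strand: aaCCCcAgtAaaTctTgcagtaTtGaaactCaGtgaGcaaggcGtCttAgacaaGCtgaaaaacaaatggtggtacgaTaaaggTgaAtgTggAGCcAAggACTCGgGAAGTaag
Gria2 flop, chr3:80691320-80691434, minus strand: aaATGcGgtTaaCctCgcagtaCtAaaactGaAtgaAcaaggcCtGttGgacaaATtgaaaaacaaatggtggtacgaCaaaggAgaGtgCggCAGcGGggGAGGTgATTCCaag
Gria3 flip, chrX:41669501-41669615, plus strand: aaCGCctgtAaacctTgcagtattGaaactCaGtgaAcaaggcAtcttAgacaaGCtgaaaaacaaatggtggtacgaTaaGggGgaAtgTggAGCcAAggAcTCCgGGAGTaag
Gria3 flop, chrX:41654810-41654924, plus strand: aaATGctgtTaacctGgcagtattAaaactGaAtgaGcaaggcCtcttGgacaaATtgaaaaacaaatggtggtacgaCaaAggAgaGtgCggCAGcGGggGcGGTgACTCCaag
Gria4 flip, chr9:4427030-4427144, minus strand: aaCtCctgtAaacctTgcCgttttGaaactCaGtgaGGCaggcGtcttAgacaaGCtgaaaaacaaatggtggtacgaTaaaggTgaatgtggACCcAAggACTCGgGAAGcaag
Gria4 flop, chr9:4432773-4432887, minus strand: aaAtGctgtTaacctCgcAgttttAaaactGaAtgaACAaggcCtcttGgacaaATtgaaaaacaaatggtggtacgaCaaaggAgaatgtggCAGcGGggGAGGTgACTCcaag

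Each of these exons was 115 bases long, and in all 4 genes the flop exon came first in the direction of transcription. Flip and flop differed at 36 bases in Gria1 and in Gria2, at 32 in Gria3 and at 31 in Gria4, an identity of 68.7% to 73.0%. The same exon was more alike between genes than flip and flop were within a gene. Pairs of flip exons shared 87.8% to 92.2% of their bases and pairs of flop exons 87.8% to 94.8%. Flip and flop were told apart by the residue after leucine-lysine-leucine in the translation, which is serine in flip and asparagine in flop.

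A second site is shown because it is the best-known editing site of the family. At the Q/R site in the pore loop, RNA editing can turn a glutamine codon into one read as arginine. It is nearly complete in Gria2 of the adult brain and partial in Grik1 and Grik2. In the sequences below, 33 bases of the annotated coding sequence, capitals mark the glutamine codon.
Gria1, codon at chr11:57243094-57243096, plus strand: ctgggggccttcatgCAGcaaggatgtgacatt
Gria2, codon at chr3:80706911-80706913, minus strand: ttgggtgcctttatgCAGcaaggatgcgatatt
Gria3, codon at chrX:41610265-41610267, plus strand: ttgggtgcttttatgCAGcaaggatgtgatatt
Gria4, codon at chr9:4464137-4464139, minus strand: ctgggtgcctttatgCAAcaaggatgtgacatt
Grik1, codon at chr16:87940542-87940544, minus strand: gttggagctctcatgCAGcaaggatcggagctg
Grik2, codon at chr10:49244329-49244331, minus strand: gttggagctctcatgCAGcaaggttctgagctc
Grik3, codon at chr4:125691207-125691209, plus strand: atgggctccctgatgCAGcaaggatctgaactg
Grik4, codon at chr9:42547623-42547625, minus strand: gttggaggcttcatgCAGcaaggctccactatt
Grik5, codon at chr7:25022497-25022499, minus strand: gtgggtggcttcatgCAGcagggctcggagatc

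The codon is CAG in 8 genes, not only in Gria2, Grik1 and Grik2, and CAA in Gria4. Expression tables hold no base calls, so the edited share was not measured. The codon was present in transcripts that carried 99.4% of the Gria2 TPM in pup 1 and 99.8% in pup 3. In Gria4 such transcripts carried only 33.4% in pup 1 and 33.2% in pup 3, as described with its short transcript below.

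The libraries held 40964891 expected counts in pup 1 and 41230878 in pup 3, so they were of nearly equal depth. Levels are in TPM (transcript number as a share of all transcripts), a length-corrected unit scaled to the same total in each library. All 9 forebrain markers reached a TPM of 1 in both pups. Of 10 midbrain and hindbrain markers, 1 did so (Slc6a4, the serotonin transporter, at 2.44 and 1.71 TPM), and Hoxb2, Hoxb3 and Hoxa2 were listed at 0. The pups differed in regional markers, on lists chosen with earlier results of these data known. Thalamic neuron markers summed to 364 TPM in pup 1 against 146 TPM in pup 3, with 7 of 7 higher in pup 1. Of all genes with a mean of 1 TPM or more, 79.6% were higher in pup 1. Cortical excitatory neuron markers summed to 372 and 508 TPM in the same order, with 2 of 6 higher in pup 1.

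All 9 subunit genes were detected in both pups, at a TPM of 1 or more. Over both pups, mean levels ran from 2.90 TPM for Grik3 to 106 TPM for Gria2, against a median of 13.4 TPM among the 15463 genes whose mean reached 1 TPM. Counts were whole numbers in all 9 genes, and the deposited posterior SD of the gene count was 0 in 8 of them. Other annotated genes that overlap the subunit genes lay on the same strand and held at most 32 counts in a library.

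Gria2, whose edited product blocks calcium entry, lies at chr3:80681450-80802835 on the minus strand and had the highest level. It had 131.31 TPM in pup 1 and 80.69 TPM in pup 3, a mean of 106 ± 35.8 TPM (SD, n = 2), from 14337 and 10127 counts. Its lower pup was above every value of the other 8 genes. Gria1, whose product carries much of the activity-dependent insertion of AMPA receptors, lies at chr11:57011387-57330244 on the plus strand. It had 76.56 TPM in pup 1 and 38.92 TPM in pup 3 (57.7 ± 26.6, SD, n = 2), from 10343 and 6008 counts. Gria1 was second in both pups, and its range overlapped neither that of Gria2 nor that of any gene below it. With protein-coding transcripts alone, Gria2 had 80.4 TPM in pup 1 and 55.47 TPM in pup 3. Gria1 was unchanged, and the ranges of the 2 genes then overlapped.

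The other 2 AMPA subunit genes were expressed at a much lower level. Gria4, whose product is prominent early in development and in interneurons, lies at chr9:4417896-4796234 on the minus strand. It had 19.09 TPM in pup 1 and 10.62 TPM in pup 3 (14.9 ± 5.99, SD, n = 2). Gria3, which lies on the X chromosome at chrX:41400854-41678601 on the plus strand, had 15.68 TPM in pup 1 and 7.48 TPM in pup 3 (11.6 ± 5.80, SD, n = 2). Both genes were higher in pup 1, and their ranges over the pups overlapped. Xist, the RNA that silences an X chromosome in females, had 2.17 counts in pup 1 and 4428.23 counts in pup 3, and the Y-linked genes Ddx3y and Eif2s3y had 3115 and 2555 counts in pup 1 and 0 in pup 3. The libraries thus match a male pup 1 and a female pup 3, although the labels give no sex. Sex and every other difference between the 2 animals cannot be told apart here.

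Among kainate subunit genes, Grik2, whose product forms channels and pairs with Grik5 in much of the brain, had the highest level. It lies at chr10:49094833-49788766 on the minus strand and had 24.97 TPM in pup 1 and 14.25 TPM in pup 3 (19.6 ± 7.58, SD, n = 2). Grik1, at chr16:87895900-88290265 on the minus strand, encodes another channel-forming subunit. It had 19.6 TPM in pup 1 and 12.38 TPM in pup 3 (16.0 ± 5.11, SD, n = 2), which overlapped the range of Grik2. Grik3, the third channel-forming subunit gene, lies at chr4:125490700-125714173 on the plus strand and had the lowest level of the 9. It had 3.55 TPM in pup 1 and 2.24 TPM in pup 3 (2.90 ± 0.926, SD, n = 2), from 822 and 585 counts on a transcript of 8973 bases.

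Over all transcripts, the 2 genes for high-affinity kainate subunits differed from each other in level. Grik5, at chr7:25009849-25072346 on the minus strand, had 13.06 TPM in pup 1 and 8.11 TPM in pup 3 (10.6 ± 3.50, SD, n = 2). Grik4, at chr9:42518135-42944493 on the minus strand, had 6.34 TPM in pup 1 and 3.53 TPM in pup 3 (4.94 ± 1.99, SD, n = 2). Their ranges did not overlap. Grik5 was 2.06-fold above Grik4 in pup 1 and 2.30-fold above it in pup 3. With protein-coding transcripts alone, Grik5 had 6.10 TPM in pup 1 and 4.25 TPM in pup 3, while Grik4 was unchanged. The ranges then overlapped, and Grik4 was the higher in pup 1. The deposited interval of the coding Grik5 transcript in pup 1, 4.54 to 8.39 TPM, included the Grik4 level, so that order was not settled.

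The order of mean levels was Gria2, Gria1, Grik2, Grik1, Gria4, Gria3, Grik5, Grik4 and Grik3. Neighbours whose ranges over the 2 pups did not overlap were Gria2 and Gria1, Gria1 and Grik2, and Grik5 and Grik4. The other neighbours had overlapping ranges, from Grik2 to Grik1, Gria4, Gria3 and Grik5, and from Grik4 to Grik3. Since every gene was higher in pup 1, ratios within a pup separate some of these more clearly. Grik4 was above Grik3 by 0.84 on the log2 scale in pup 1 and 0.66 in pup 3, and Grik2 was above Grik1 by 0.35 and 0.20. Gria4 was above Gria3 by 0.28 in pup 1 and 0.51 in pup 3. Within each pup the order was the same except for Gria3 and Grik5: Gria3 was the higher in pup 1 and Grik5 in pup 3. These ranges and orders count all transcripts. With protein-coding transcripts alone, the ranges of Gria2 and Gria1 overlapped, as did those of Grik5 and Grik4. The place of Gria4 above Gria3 rests on a short Gria4 transcript described below. Gria3 forms of 888 residues had 14.06 TPM in pup 1 and 6.46 TPM in pup 3. Gria4 forms of 902 residues were lower in both pups, at 6.37 and 3.53 TPM.

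**Figure D1:**
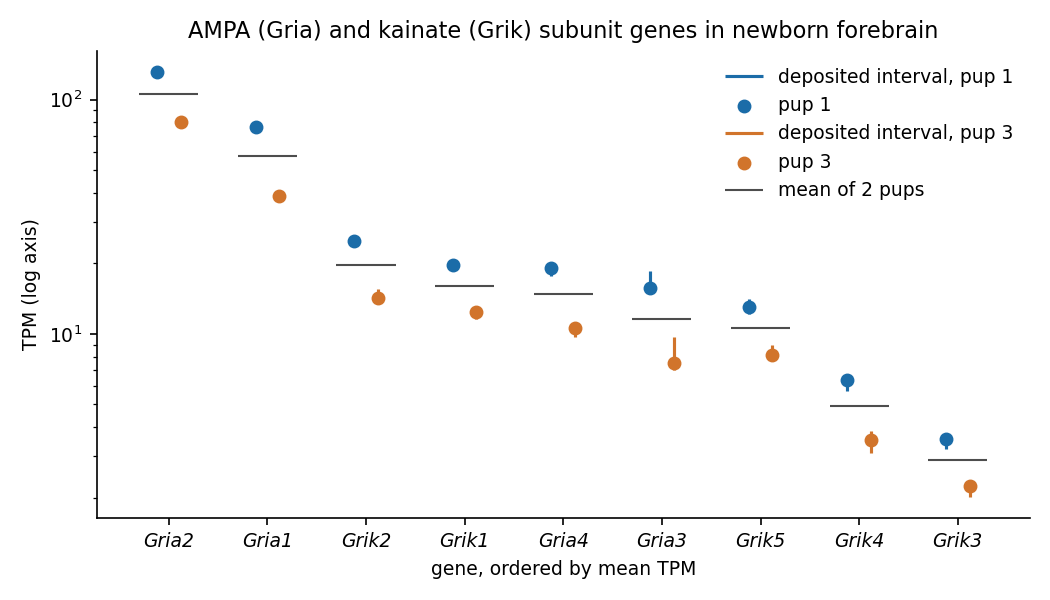
TPM of the 9 subunit genes on a log axis, ordered by mean, with pup 1 at the left and pup 3 at the right of each gene. Points are the deposited TPM, vertical lines the deposited credible intervals (some hidden by the points) and horizontal bars the mean of 2 pups. Every gene was higher in pup 1, Gria2 and Gria1 stood above the rest, and the 2 ranges overlapped for most neighbours below them.

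The families kept nearly the same proportions in both pups although all levels differed. The 4 AMPA genes summed to 242.64 TPM in pup 1 and 137.71 TPM in pup 3. The 5 kainate genes summed to 67.52 TPM in pup 1 against 40.51 TPM in pup 3. AMPA transcripts were therefore 3.59-fold above kainate transcripts in pup 1 and 3.40-fold above them in pup 3, a mean log2 ratio of 1.81 ± 0.06 (SD, n = 2). Within the AMPA sum, Gria2 made up 54.1% in pup 1 and 58.6% in pup 3, a mean of 56.4% ± 3.17 (SD, n = 2). Gria1 made up 31.6% and 28.3%, Gria4 7.87% and 7.71%, and Gria3 6.46% and 5.43%. With protein-coding transcripts alone, the mean Gria2 share was 46.0%, because the retained-intron transcripts described below no longer counted.

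The kainate sum divided more evenly. Grik2 made up 37.0% in pup 1 and 35.2% in pup 3, and Grik1 29.0% and 30.6%. Grik5 made up 19.3% and 20.0%, Grik4 9.39% and 8.71%, and Grik3 5.26% and 5.53%. The 3 channel-forming genes thus held most of the sum in both pups. In percentage points, the Gria2 share of its family differed most between the pups. Over all transcripts, Gria2 was 1.72-fold above Gria1 in pup 1 and 2.07-fold above it in pup 3.

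All 9 genes had a higher level in pup 1 than in pup 3, as did 79.6% of the 15463 genes whose mean reached 1 TPM. On the scale log2 of TPM + 1 in pup 1 over that in pup 3, the differences were 0.98 for Gria3, 0.96 for Gria1, 0.79 for Gria4 and 0.70 for Gria2. They were 0.77 for Grik2, 0.70 for Grik4, 0.63 for Grik5, 0.62 for Grik1 and 0.49 for Grik3. The median over the 9 genes was 0.70, against 0.24 over those 15463 genes, for which the middle 50% ran from 0.05 to 0.45. After subtraction of the all-gene median, the 9 differences lay between 0.25 and 0.74. The deposited credible intervals of the pups did not overlap in 9 of 9 genes. The same share over all genes was not counted, so this does not set the subunit genes apart. Those intervals cover uncertainty of counting and read assignment, not differences between animals, and their level is not given in the sources used here.

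None of the 8 subunit genes that reached 5 TPM in a pup was more than 2-fold apart on that scale, a distance passed by 2.5% of the 11477 genes that met the same minimum. The added 1 TPM decided this for Gria3, which was 2.10-fold higher in pup 1 in TPM itself. All 8 were more than 1.5-fold higher in pup 1, against 13.6% of the 11477 genes. The 1.5-fold distance was chosen after the values were seen. Grik3 did not reach 5 TPM. CPM (counts scaled by library depth) was also used with TMM scaling, which removes the shared shift between libraries. There, 2 of 8 were more than 1.5-fold apart (Gria1 and Gria3), against 7.01% of the 11477 genes in either direction.

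The difference between the pups was larger for genes with longer transcripts, and subunit transcripts are long. Whether length has a part in the subunit difference was not tested, and the length classes were not matched for level. Protein-coding genes with a mean deposited length under 2000 bases had a median log2 ratio of 0.09, those from 2000 to 3000 bases 0.26, those from 3000 to 4000 bases 0.35, those from 4000 to 6000 bases 0.41, and longer ones 0.49. Set against coding genes of their own length class, 8 of 9 subunit genes lay above the upper quartile, which 25% of the class exceed. Gria1, Gria2, Gria3, Grik2 and Grik4 fell in the class from 4000 to 6000 bases, with an upper quartile of 0.58. Gria4, Grik1 and Grik5 fell in the class from 3000 to 4000 bases, with an upper quartile of 0.52. Grik3, with 8973 bases, had the median value of its class, 0.49. The added 1 TPM lowers this value most, since Grik3 had the lowest level. In TPM itself Grik3 was 1.58-fold higher in pup 1, as was Grik1.

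**Figure D2:**
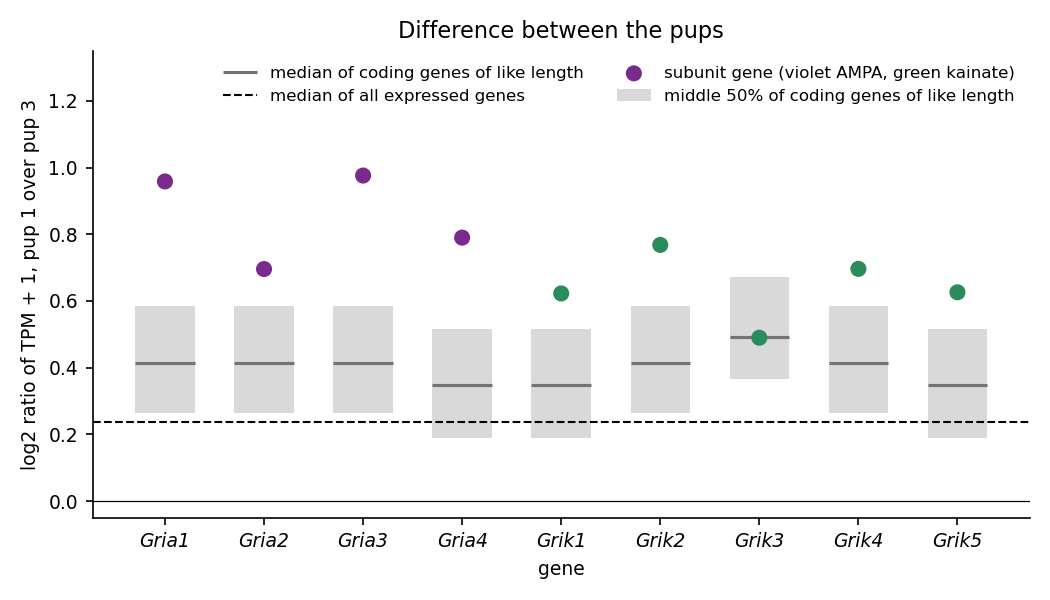
Difference between the pups for each subunit gene, as log2 of TPM + 1 in pup 1 over that in pup 3. Grey boxes span the middle 50% of protein-coding genes in the same length class, with their median as a grey line, and the dashed line is the median of the 15463 expressed genes, 0.24. The genes other than Grik3 lay above their box. Grik3, at the lowest level, is the gene most lowered by the added 1 TPM.

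Marker lists differed between the pups as well, and their part in the subunit difference was not tested. General neuron markers were higher in pup 1 in 8 of 8 cases, against 79.6% of all expressed genes, with a median log2 ratio of 0.44 and sums of 5561 TPM in pup 1 and 4625 TPM in pup 3. GABAergic neuron markers were higher in 7 of 7 cases (median 0.49, sums 760 and 646 TPM). Thalamic markers had a median of 1.16, and 5 of 7 were more than 2-fold higher. Of all genes with 5 TPM or more in a pup, 2.5% were that far apart in either direction. Cortical excitatory neuron markers had a median of -0.04. Radial glia and astrocyte markers were higher in 6 of 7 cases, with a median of 0.37. Their sums, 2677 TPM in pup 1 and 2720 TPM in pup 3, were mostly Fabp7, the member that was lower in pup 1 (2151.18 and 2326.38 TPM). Oligodendrocyte precursor markers were higher in 5 of 5 cases (median 0.37, sums 149 and 126 TPM). Medians were 0.07 for microglia markers (sums 124 and 129 TPM) and 0.03 for endothelial markers (sums 128 and 130 TPM). In whole tissue, fewer cells of a type and less RNA per cell cannot be told apart.

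The annotation lists 58 transcripts for the 9 genes. Of these, 33 are protein coding, 18 retain an intron, 4 are marked for nonsense-mediated decay (destruction of messages with an early stop) and 3 are other non-coding forms. In both pups 10 of the 58 were listed at 0. The transcript with the highest TPM was the same in both pups for 8 of 9 genes. Transcript values rest on the division of shared reads, so each is given below with its counts or posterior SD where that is large.

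Gria1 and Gria2 transcripts with the flip exon led in both pups. Gria1-201 (flip, 5546 bases) held 77.45% of the Gria1 TPM in pup 1 and 77.97% in pup 3, and Gria1-202 (flop, 5399 bases) held 17.88% and 18.74%. Gria2-202 (flip, 4026 bases) held 54.58% of the Gria2 TPM in pup 1 and 61.16% in pup 3, and Gria2-201 (flop, 10371 bases) held 6.65% and 7.59%. Both genes encode the same protein length from either form, 907 residues for Gria1 and 883 for Gria2.

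Of transcripts that carry 1 of the 2 exons, the flip form made up 81.2% of the Gria1 TPM in pup 1 and 80.6% in pup 3, a mean of 80.9% ± 0.43 (SD, n = 2). For Gria2 it made up 89.1% in pup 1 and 89.0% in pup 3. Without length correction, as a share of expected counts, Gria2 flip stood at 75.8% and 75.5%. The shares of these genes differed between pups by under 1 percentage point, whereas their levels differed by 1.97-fold and 1.63-fold. For Gria3 the flip share was 66.4% of TPM in pup 1 and 71.0% in pup 3, or 77.5% and 81.1% of counts. The Gria3 flop forms include Gria3-208, which also retains an intron. Gria3-202, the main flop form, had 196.59 counts in pup 1 and 72.25 in pup 3, with posterior SDs of 69.6 and 36.1. Gria3-209, another flop form, had 115.94 and 61.99 counts, with posterior SDs of 57.0 and 35.5. For Gria4 it was 50.4% in pup 1 and 46.7% in pup 3, with posterior SDs of 86.3 and 54.8 counts on the 440.16 and 254.46 counts of the flip form, so the side of an even split was not settled.

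**Figure D3:**
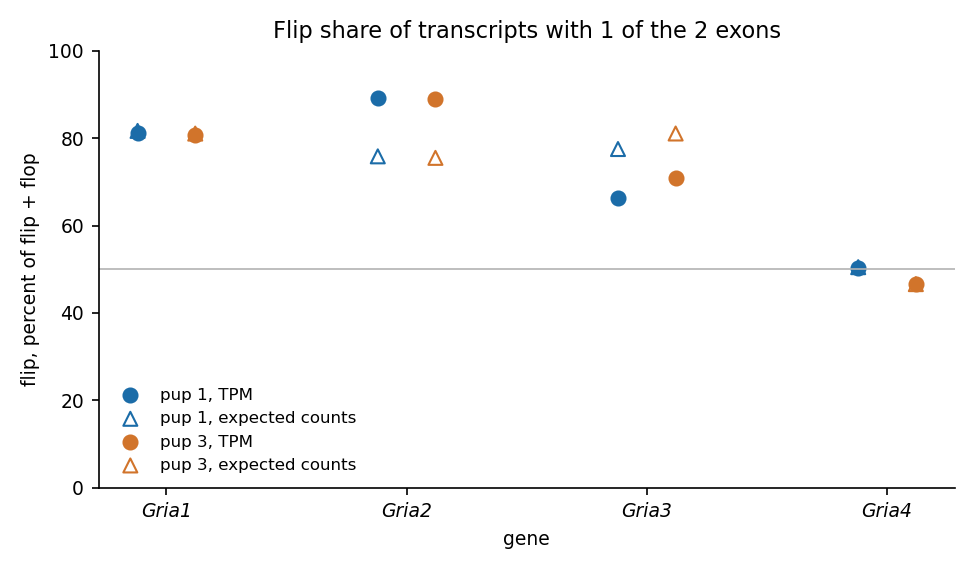
Flip share of transcripts that hold exactly 1 of the 2 exons, in percent, for the 4 AMPA subunit genes, with pup 1 at the left and pup 3 at the right. Filled circles are shares of TPM and open triangles shares of expected counts. Flip lay between 66.4% and 89.1% in Gria1, Gria2 and Gria3 by either measure, and on both sides of the grey 50% line in Gria4.

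The exon is not the only feature that divides these forms, so the shares are shares of listed transcripts. The flip form of Gria2 has an annotated 3′ UTR of 923 bases and the flop form one of 7268 bases. The flop form has 6345 bases found in no other listed Gria2 transcript, and the flip form has 0. Reads in that stretch therefore weigh in the Gria2 split along with reads in the exons, and the choice of exon and of 3′ end cannot be told apart in these tables. The Gria3 flip form has a 3′ UTR of 2264 bases, against 248 and 0 bases in the 2 complete flop forms. For Gria1 the 3′ UTRs are 2598 and 2597 bases and for Gria4 the longest forms have 2256 and 2253 bases, so there the forms differ in the exon and at the 5′ end.

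Most Gria4 TPM lay in a short transcript. Gria4-203, of 2338 bases and 433 residues, holds neither the Q/R codon nor a flip or flop exon. It had 12.73 TPM in pup 1 and 7.09 TPM in pup 3, which is 66.67% and 66.76% of the gene. In counts it held 46.0% and 46.1%, with 744.11 and 467.00 counts and posterior SDs of 22.6 and 16.8. The 3 transcripts that encode the full 902 residues together had 6.37 TPM in pup 1 and 3.53 TPM in pup 3.

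Retained-intron transcripts made up 35.5% of the Gria2 TPM in pup 1 and 28.7% in pup 3. Most of that was Gria2-206, of 3462 bases, with 40.70 TPM in pup 1 and 20.76 TPM in pup 3 from 3573.13 and 2054.53 counts. It has 723 bases in no other listed Gria2 transcript and contains the Q/R codon. Retained-intron shares were 27.1% in pup 1 and 16.2% in pup 3 for Grik1, and 10.4% and 10.0% for Gria3. They were 5.73% and 2.88% for Grik2, and 0 in Gria1, Gria4, Grik3 and Grik4. For Grik5 they were 11.4% in pup 1 and 2.84% in pup 3, all in transcripts under 1000 bases, which made up 2.49% and 0.46% of its counts. By TPM the share was higher in pup 1 in all 5 genes that had such transcripts, by 10.9 percentage points in Grik1 and by 0.36 in Gria3. By counts the Gria3 share was lower in pup 1, at 8.35%, against 9.74% in pup 3. Retained-intron shares over all genes were not computed, so a difference particular to the subunit genes is not shown.

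**Figure D4:**
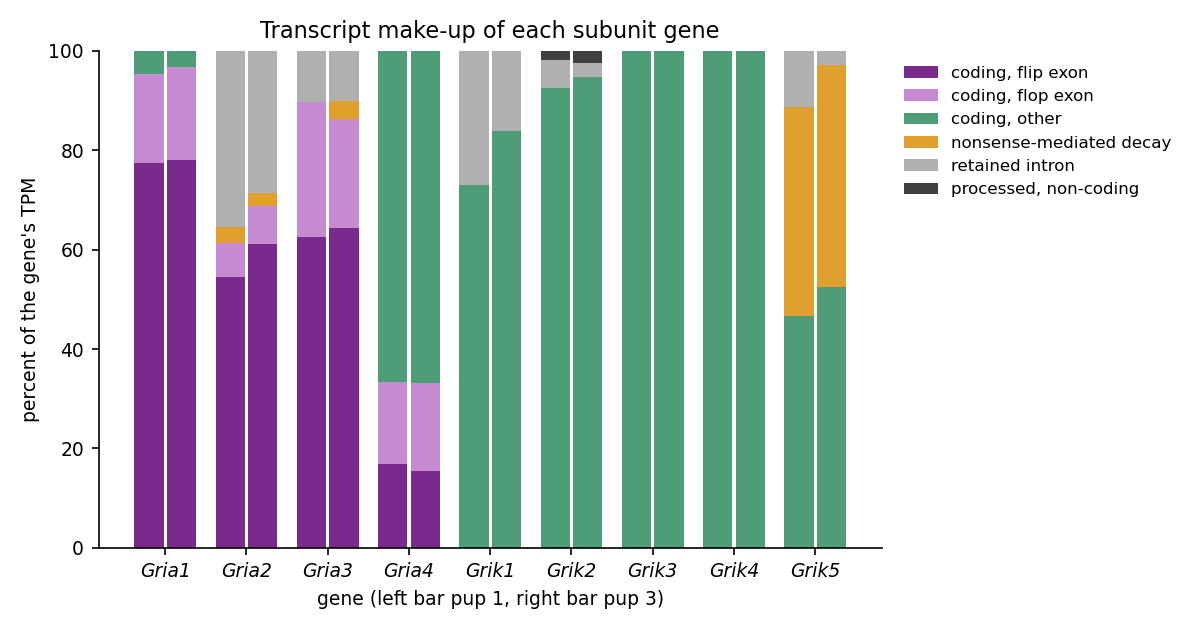
Share of each gene's TPM by kind of transcript, in percent, with pup 1 in the left bar and pup 3 in the right bar. Colours mark coding transcripts with the flip exon, the flop exon or neither, nonsense-mediated decay, retained introns and other non-coding forms. Gria4 was mostly the short coding form with neither exon, Gria2 and Grik1 had the largest retained-intron shares, and Grik5 the largest decay-marked share, in both pups.

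Grik1 was the gene whose leading transcript differed between pups. Grik1-202, which encodes 934 residues, led in pup 1 with 30.38%, against 23.84% in pup 3. Grik1-201, which encodes 905 residues, led in pup 3 with 43.79%, against 28.05% in pup 1. Posterior SDs were 97.1 and 77.6 counts on the 552.72 and 308.81 counts of Grik1-202, and 110 and 90.2 counts on the 495.78 and 551.14 counts of Grik1-201. In pup 1 the gap between the forms was smaller than either posterior SD. These forms differ by part of the coding sequence, and neither has a base that no other listed transcript holds.

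Grik2 coding transcripts encoded proteins of different length. Transcripts encoding 908 residues held 62.1% of the Grik2 TPM in pup 1 and 68.5% in pup 3, mainly Grik2-202 at 51.38% and 59.13%. Those encoding 869 residues held 8.73% and 8.13%. Grik2-210, which encodes 338 residues, held 19.07% in pup 1 and 17.12% in pup 3 from 246.97 and 142.59 counts. The long form led in both pups by a wide margin over the posterior SDs of 48.1 and 34.1 counts on 1304.11 and 965.43 counts of Grik2-202.

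Grik5 was divided between a coding and a decay-marked transcript. Grik5-201, the sole listed form of 979 residues, had 6.10 TPM in pup 1 and 4.25 TPM in pup 3, which is 46.68% and 52.43% of the gene. Grik5-202, marked for nonsense-mediated decay, had 4.90 TPM in pup 1 and 3.47 TPM in pup 3. Its counts were 447.39 and 357.22, with posterior SDs of 93.7 and 69.8, since it has 25 bases of its own and Grik5-201 has 0. The coding level of Grik5 was therefore less certain than its gene level.

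Grik3 and Grik4 had the simplest make-up. Grik3 has 1 listed transcript, encoding 919 residues. Grik4 has 2, both encoding 956 residues. The shorter, Grik4-201 (3413 bases), held 75.51% of the Grik4 TPM in pup 1 and 71.09% in pup 3.

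Auxiliary subunits sit beside the pore and alter the trafficking and gating of AMPA receptors. All 15 genes of this list were detected in both pups. Higher in pup 1 were 14 of 15, against 79.6% of all expressed genes, and 9 by more than the all-gene median. Cnih2, a cornichon that slows channel closing, had 498.9 TPM in pup 1 and 447.3 TPM in pup 3. That is more than all 4 pore-forming genes together. Cacng4, a transmembrane AMPA receptor regulatory protein (TARP) of early development, had 47.69 and 35.45 TPM, and the cornichon Cnih3 40.76 and 24.73 TPM. Syndig1, which acts in excitatory synapse formation, had 24.54 TPM in pup 1 against 25.42 TPM in pup 3 and was the member not higher in pup 1. The list's median log2 ratio was 0.41. Of the 12 members with 5 TPM or more in a pup, 2 were over 1.5-fold higher in pup 1, against 13.6% of all genes at that level.

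Genes for assembly, export and clustering of AMPA receptors were all detected. In pup 1, 10 of 10 were higher, against 79.6% of all expressed genes, and each by more than the all-gene median. Olfm1, an olfactomedin found in AMPA receptor complexes, had 367.01 TPM in pup 1 and 276.26 TPM in pup 3. Its relative Olfm2 had 205.65 and 167.05 TPM. Nptxr, the neuronal pentraxin receptor that clusters AMPA receptors, had 72.15 TPM in pup 1 against 33.28 TPM in pup 3, and was the member more than 2-fold apart. Porcn, a membrane acyltransferase found with AMPA receptors, had 38.48 and 31.33 TPM. The median log2 ratio was 0.41, and 3 of 10 were over 1.5-fold higher in pup 1, against 13.6% of genes with 5 TPM or more in a pup.

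Of 8 anchoring and recycling genes, 7 were higher in pup 1, a share near the 79.6% of all expressed genes, with a median log2 ratio of 0.44. Nsf, an ATPase that binds the Gria2 tail, had 152.03 TPM in pup 1 and 96.36 TPM in pup 3. Pick1, which removes Gria2-containing receptors from the surface, had 60.04 and 48.43 TPM. Gripap1, a partner of GRIP in receptor recycling, had 51.52 and 36.57 TPM, and the scaffold Grip1 had 12.22 and 9.06 TPM. Of the 7 with 5 TPM or more in a pup, 2 were over 1.5-fold higher in pup 1, against 13.6% of all genes at that level.

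In TPM, the kainate receptor auxiliary genes differed less between pups than the pore-forming genes. Neto2 had 58.96 TPM in pup 1 and 51.89 TPM in pup 3. Neto1 had 10.3 and 8.87 TPM in the same order of pups. Both were higher in pup 1 in TPM, with log2 ratios of 0.18 and 0.20, below the all-gene median of 0.24. In counts, Neto2 had 6971 in pup 1 and 6984 in pup 3. Neto1 had 1905.36 and 1365.38 counts and Grik5 1118 and 838, so by counts Neto1 differed no less than Grik5. Neto2 alone was close to the sum of the 5 kainate subunit genes in pup 1 and above it in pup 3 (67.52 and 40.51 TPM).

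All 3 genes for RNA editing enzymes were detected. Adarb1, which encodes ADAR2, the enzyme that edits the Gria2 Q/R site, had 10.31 TPM in pup 1 and 9.84 TPM in pup 3, a log2 ratio of 0.06. Adar, which encodes ADAR1, had 15.25 and 11.16 TPM, and Adarb2, which encodes a relative with no known editing activity, had 10.8 and 6.07 TPM. The level of Adarb1 thus differed less between the pups than that of Gria2.

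**Figure D5:**
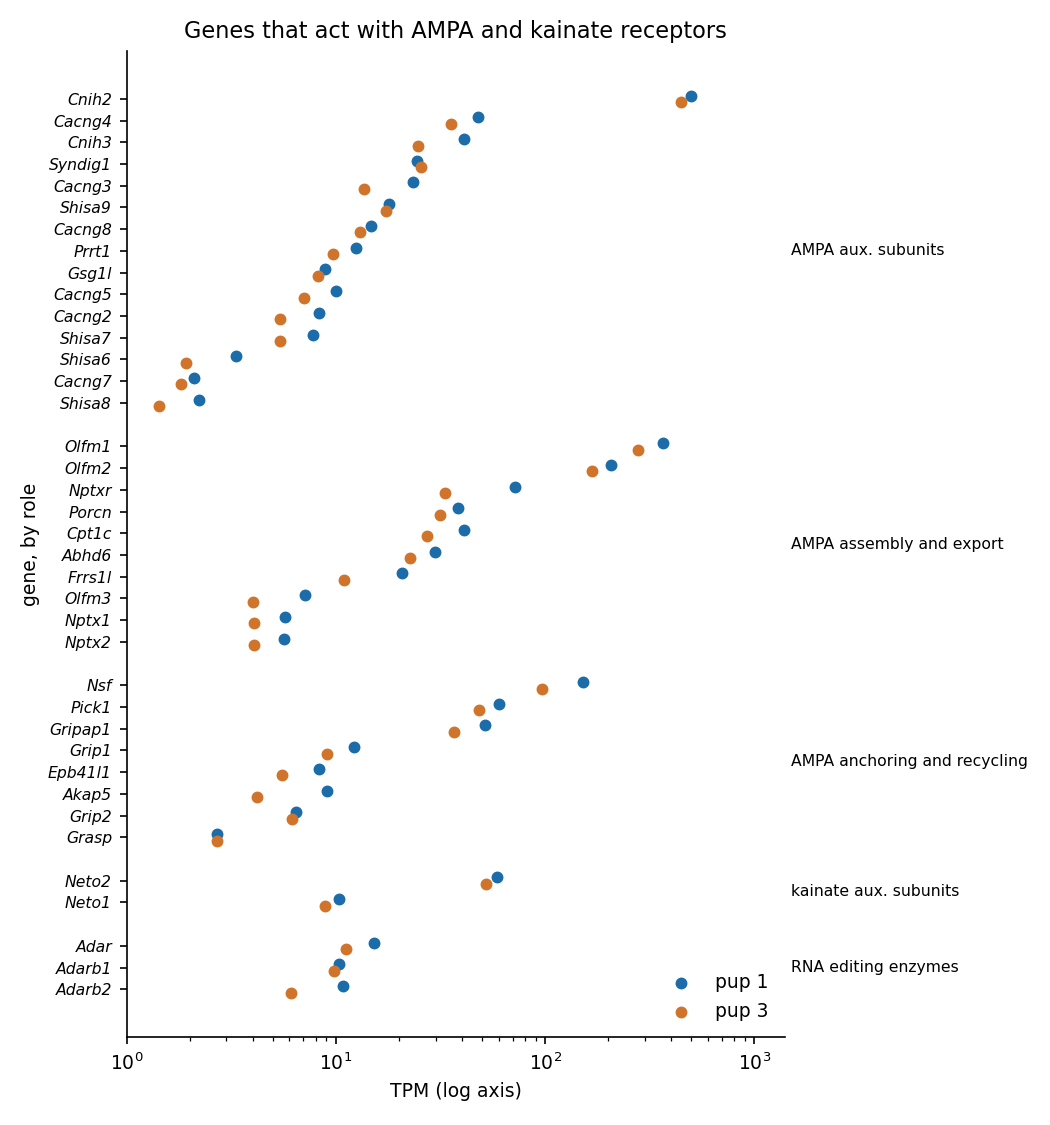
TPM in pup 1 (blue) and pup 3 (orange) of the genes in the 5 receptor-associated lists, on a log axis, grouped by role and ordered by mean within each group. Cnih2, Olfm1, Olfm2 and Nsf had the highest levels, and Syndig1 and Grasp were the genes that were not higher in pup 1.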

How the data were processed

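Polyadenylated RNA of 2 newborn mouse forebrains was sequenced after oligo-dT priming, amplification from 10 ng of RNA and Nextera tagmentation, per the labels. The authors deposited expected counts (estimated counts per gene and transcript, in which multi-mapped reads are divided), TPM and FPKM, each also as a posterior mean, for mm10 with GENCODE releases M21 and M4, per the file headers and notes. The percent of a gene's TPM in each transcript was deposited by the authors as well, as were the credible intervals and posterior SDs. The aligner, the quantifier and the strand setting: not given in the sources used here. RSEM writes tables with these column names. The intervals belong to the posterior means, so a point estimate can lie at their edge.

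The M21 tables were used, with symbols, coordinates and transcript kinds from GENCODE M21. TPM holds spike-ins and short features in its total. Depth was nearly equal in the pups, at 40964891 and 41230878 expected counts. No molecular identifiers were counted, so amplified copies were not told apart from separate molecules. The deposited intervals cover error in counting and assigning reads, and not such copying. Errors are SDs over 2 pups. With 1 group there was no comparison between groups, and none was tested: with 2 pups the smallest p of an exact sign-flip test is 0.5. Differences are log2 of TPM + 1 in pup 1 over pup 3, described among genes whose mean reached 1 TPM, and counted past 2-fold among genes with 5 TPM or more in a pup. Expected counts were rounded to whole numbers for TMM (edgeR 4.0.16) and size factors (DESeq2 1.42.0), and no count model was fitted. Tables were handled in Python 3.11.15 with pandas 2.3.3, and sequences were translated with Biopython 1.88. The scaling and 2-fold steps were tested on simulated gene counts. The transcript and length-class steps were not.

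The subunit genes and the 17 gene lists were chosen with earlier results of these data known. All 9 subunit genes are named throughout, and the 4 highest genes of each receptor-associated list. Other genes named were chosen after their values were seen. Alternatives changed the unit (FPKM, posterior mean TPM, CPM), the annotation release, the transcripts counted, the pseudocount, the scaling, the filter and the pup left out.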

Additional observations from a re-analysis of the deposited data

How the results depend on the processing

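All 9 subunit genes stayed above the all-gene median difference and higher in pup 1 under every unit, scaling and annotation tried. The AMPA over kainate log2 ratio was 1.99 in CPM, with no length correction, and 1.95 with release M4, and ran from 1.77 to 1.85 with either pup left out. The Gria2 share of AMPA TPM was 46.0% with protein-coding transcripts alone, and ran from 54.1% to 58.6% with either pup left out. With 2 pups, leaving out either cannot move a mean by more than the SD, so this is no sign of stability. The median log2 ratio of the 9 genes was 0.53 in FPKM, 0.45 in CPM with TMM scaling and with DESeq2 size factors, 0.80 with a pseudocount of 0.1 and 0.46 with the all-gene median removed. The all-gene median itself was 0.24 in TPM, 0.09 in FPKM and -0.03 with TMM scaling. The count past 2-fold was 1 (Gria3) with protein-coding transcripts alone and with a pseudocount of 0.1. At 1.5-fold, added after the data were seen, it was 8 in TPM and 2 in CPM with TMM scaling. With coding transcripts alone, Gria2 had 67.9 TPM and Grik5 5.18 TPM. The order of levels changed in CPM, where Gria3 passed Gria4 and Grik3 passed Grik4, and with coding transcripts alone, where Gria4 passed Grik1. The Gria4 flip share, higher in pup 1 in M21, was 47.4% in pup 1 and 50% in pup 3 with M4. With 1 library a pup, animal-to-animal spread, sex, dissection and library preparation cannot be told apart.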
